A study of Mus musculus with 106 samples.

Results

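The genes described here encode the core of the machine that fuses synaptic vesicles with the presynaptic membrane: the SNARE proteins *Snap25*, *Vamp1*, *Vamp2* and *Stx1a*, and the complexins *Cplx1*, *Cplx2* and *Cplx3*. They were chosen by name from a deposited table of counts per gene, with Ensembl identifiers mapped to symbols, and make up 7 of the 55401 mouse genes listed there, or 7 of 21897 protein-coding genes. Their use by cell type in control mice comes first, then their levels in a mouse model of Huntington's disease (HD).

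The study sequenced ribosome-bound mRNA from genetically tagged neuron types at about 9 months of age, together with total RNA of the same homogenates. HD mice were Hdh Q7/Q200 knock-ins, with a long CAG repeat in the endogenous gene, and controls were their Hdh Q7/Q7 littermates, all on a 129S4 background. Mice carried the RiboTag allele, an HA-tagged *Rpl22* that a Cre driver switches on, and 1 driver: Gad2-IRES-Cre for GABAergic neurons, PV-IRES-Cre, vGluT2-IRES-Cre, or an SST line. In the Gad2, PV and vGluT2 lines they were heterozygous for both. The study's methods give no description of the SST line, so its zygosity and whether its controls were littermates are not known. Immunoprecipitates (IPs) came from 1 hemisphere of the cerebrum without the olfactory bulb, and for the Gad2 and vGluT2 lines also from the cerebellum. A PV IP pooled duplicate IPs of a brain. There were 106 libraries, 67 from IPs and 39 of total RNA, from 45 mice: 24 control and 21 HD. A driver tags every cell that expresses it, so the Gad2 IPs hold striatal as well as cortical neurons, and the cerebellar vGluT2 IPs hold mainly granule cells.

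A synaptic vesicle fuses when a VAMP on its membrane zips together with syntaxin 1 and SNAP-25 on the plasma membrane. Complexins bind the assembled SNARE bundle, both clamping it before the calcium signal and supporting fast release after it. Each of these jobs can be done by more than one gene, and neuron types are known to differ in the paralogs they use, with *Vamp1* prominent in fast-firing neurons, *Cplx1* in many inhibitory neurons, *Cplx2* in many excitatory ones and *Cplx3* best known from the retina.

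All 7 genes passed the filter of a mean count over 10 in every comparison below. Coordinates are from GENCODE M21 on GRCm38.p6. *Snap25* (ENSMUSG00000027273.13) lies on chromosome 2 from 136713453 to 136782428, plus strand, and overlaps the processed pseudogene Gm14053 on the opposite strand. *Vamp1* (ENSMUSG00000030337.16) lies on chromosome 6 from 125215551 to 125245964, plus strand, and overlaps Tapbpl, Cd27 and Mir8113 on the opposite strand. *Vamp2* (ENSMUSG00000020894.16) lies on chromosome 11 from 69088490 to 69092384, plus strand, and *Stx1a* (ENSMUSG00000007207.10) on chromosome 5 from 135023482 to 135051100, plus strand. *Cplx1* (ENSMUSG00000033615.9) lies on chromosome 5 from 108518554 to 108550024, minus strand, *Cplx2* (ENSMUSG00000025867.8) on chromosome 13 from 54371349 to 54383917, plus strand, and *Cplx3* (ENSMUSG00000039714.9) on chromosome 9 from 57599992 to 57606281, minus strand. The last 5 overlap no other annotated gene. The members therefore sit on 6 chromosomes, with *Stx1a* and *Cplx1* both on chromosome 5.

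Library totals ran from 21905221 to 107753586 counts, with a median of 35866726. Levels between libraries are given as CPM, counts scaled to a common library size with TMM factors. Levels and sums of cell type markers are the exception. They are CPM of the library total without these factors, and their ranges are compared on that scale. The IPs carried the markers of their drivers. Summed over *Gad1*, *Gad2* and *Slc32a1*, the median control level was 2776 CPM in cerebral Gad2 IPs, 2863 CPM in PV IPs and 1553 CPM in SST IPs, against 73.7 CPM in cerebral vGluT2 IPs. *Pvalb* had a median of 679 CPM in PV IPs against 406 CPM in cerebral Gad2 IPs, and *Sst* 1659 CPM in SST IPs against 782 CPM. In the cerebellum the granule cell markers *Gabra6*, *Neurod1* and *Fat2* summed to a median of 3036 CPM in control vGluT2 IPs and 324 CPM in Gad2 IPs. The PV and SST IPs also held the glutamatergic markers *Slc17a6* and *Slc17a7*, at medians of 1020 and 1094 CPM against 213 CPM in cerebral Gad2 IPs. Astrocyte markers were higher there too (281 and 419 against 113 CPM), as were vascular markers (23.0 and 31.3 against 7.05 CPM). The levels in PV and SST IPs are therefore not those of pure populations.

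Some libraries stand apart. In 3 control mice of the vGluT2 line, libraries of the same mouse differ in sex by *Xist* and Y-linked counts, and 8 libraries belong to those mice. Control cerebellar vGluT2 IP replicates 1, 3 and 4 and control cerebral vGluT2 IP replicates 1 and 3 are among the libraries that go against, or may go against, their mouse. By those counts control replicate 1 is female in its cerebellar and male in its cerebral IP, and replicate 3 is the reverse. The genotype of the doubted libraries cannot be checked in the counts, and tests that rest on them are given with and without them. Control cerebellar vGluT2 IP replicate 5 held 62.0 CPM of *Sst* against 0.192 to 8.71 CPM in the other 4 control libraries. Among PV IPs, HD replicate 3 held 1510 CPM of Purkinje cell and 202 CPM of granule cell markers, against 63.5 to 107 CPM and 2.71 to 6.02 CPM in the other HD libraries, and control replicate 2 held 652 and 64.3 CPM, against 90.9 to 213 CPM and 5.79 to 15.3 CPM. Without control replicate 2 the number of members called stayed at 6 against total RNA, 6 against Gad2 and 4 against SST IPs, and it stayed at 0 between genotypes with each of these libraries left out in turn. All 4 HD SST IPs come from mice of a single identifier series, as do 2 of the 5 control SST IPs, and the other 3 are of another series, so series and genotype cannot be fully told apart in that comparison. Across all libraries, the first axis of variation within library types held 47.4% of the variance over 12160 genes, and it followed a GC index, the rank correlation of each library's deviations with the GC content of the genes. *Snap25* has 43.4% GC, against a median of 50.4% over those genes, and the other members have 52.4 to 58.5%. The place of each member on that axis was not tested. In cerebellar total RNA of the vGluT2 line the index separates the genotypes, from -0.77 to -0.30 in controls and from 0.42 to 0.70 in HD. In cerebellar vGluT2 IPs it overlaps, from -0.49 to 0.14 in controls and from -0.52 to 0.68 in HD.

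**Figure D1:**
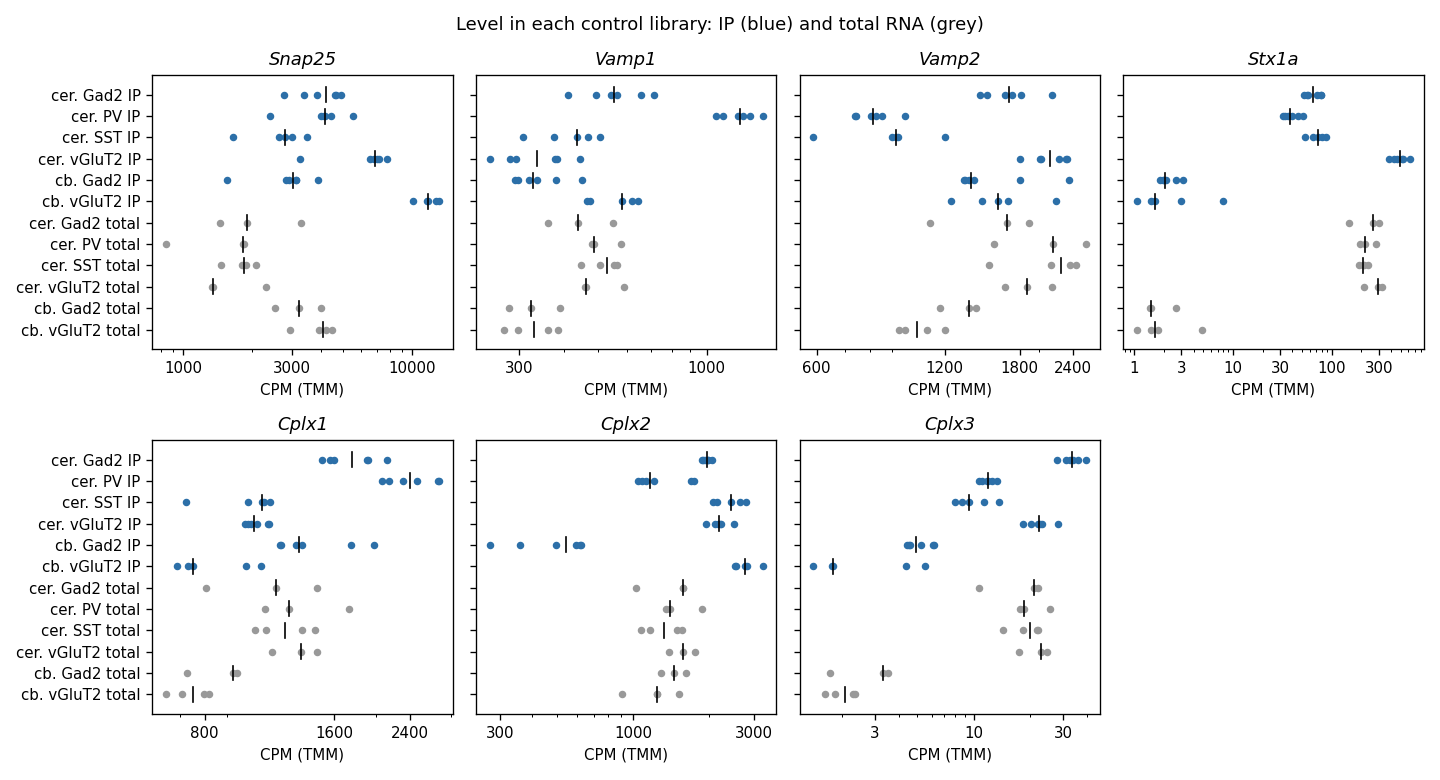
Level of each gene in every control library, as CPM with TMM factors on a log scale. Blue points are IPs, grey points total RNA, and the black bar is the median of the group; cer. is cerebrum and cb. cerebellum. *Stx1a* and *Cplx3* are far lower in the cerebellum than in the cerebrum, and *Vamp1* is highest in PV IPs.

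*Stx1a* encodes syntaxin 1A, the target-membrane SNARE, and showed the widest spread over groups. In control cerebral vGluT2 IPs it ran from 386 to 626 CPM, with a median of 492 CPM. No control library of another group reached this range. Cerebral total RNA held 149 to 324 CPM, SST IPs 54.2 to 87.8 CPM, Gad2 IPs 53.0 to 78.8 CPM and PV IPs 32.0 to 51.2 CPM. Cerebellar libraries lay far below, with 1.07 to 8.03 CPM in all 4 groups of that region, whose ranges overlap one another. Among cerebral IPs the order was vGluT2, then SST and Gad2, whose ranges overlap, then PV. In vGluT2 IPs *Stx1a* was lower in the cerebellum than in the cerebrum (log2 difference -7.36, SE 0.53, adjusted p = 3.88e-08, all 5 cerebellar libraries below the cerebral median). With 1 library left out this difference ran from -8.16 to -7.14 and stayed called.

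*Snap25* encodes the plasma membrane SNARE that supplies the remaining helices of the bundle. Control cerebellar vGluT2 IPs held 10035 to 13100.0 CPM and did not overlap any other control group. Cerebral vGluT2 IPs followed at 3230 to 7776 CPM, overlapping PV IPs (2385 to 5491 CPM), which overlapped Gad2 IPs (2747 to 4879 CPM). Cerebellar Gad2 IPs (1558 to 3868 CPM) and SST IPs (1651 to 3474 CPM) were the lowest IPs and overlap each other. Its paralog *Snap23*, better known outside neurons, had means of only 1.36 to 3.44 CPM in the 6 control IP groups.

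*Vamp1* and *Vamp2* encode the vesicle SNAREs. Control PV IPs held 1060 to 1434 CPM of *Vamp1*, above every other control group. Next came cerebral Gad2 IPs (410 to 714 CPM) and cerebellar vGluT2 IPs (463 to 646 CPM), which overlap each other. SST IPs (309 to 504 CPM), cerebellar Gad2 IPs (293 to 450 CPM) and cerebral vGluT2 IPs (249 to 444 CPM) overlap as well. *Vamp2* ran nearly the other way among cerebral IPs: 1800 to 2321 CPM in vGluT2, 1452 to 2141 CPM in Gad2, 589 to 1203 CPM in SST and 739 to 966 CPM in PV. The last pair overlap each other and not the cerebral vGluT2 or Gad2 IPs. Cerebellar vGluT2 (1239 to 2196 CPM) and Gad2 IPs (1331 to 2354 CPM) overlap each other and the cerebral Gad2 IPs.

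Per kilobase of merged exons, *Vamp1* made up 36.0% (SD 1.60%) of *Vamp1* plus *Vamp2* in control PV IPs, and between 5.71% (cerebral vGluT2) and 14.9% (SST) in the other IPs. The share depends on the length taken, since *Vamp1* has long alternative ends: with the longest protein-coding transcript it was 52.4% in PV IPs and 10.6 to 25.4% in the others. PV IPs hold the largest share with either length and with counts not divided by length (60.0%).

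*Cplx1* and *Cplx2* encode the complexins abundant in brain. *Cplx1* was highest in control PV IPs (2074 to 2812 CPM), whose range overlaps that of cerebral Gad2 IPs (1501 to 2124 CPM), and then cerebellar Gad2 IPs (1196 to 1982 CPM). Cerebral vGluT2 (994 to 1130 CPM), SST (725 to 1134 CPM) and cerebellar vGluT2 IPs (692 to 1084 CPM) form a lower set whose ranges overlap. *Cplx2* was highest in cerebellar vGluT2 IPs (2534 to 3245 CPM), overlapping SST IPs (2062 to 2775 CPM), which overlap cerebral vGluT2 IPs (1945 to 2507 CPM). Cerebral Gad2 IPs held 1862 to 2044 CPM, PV IPs 1051 to 1742 CPM, and cerebellar Gad2 IPs 272 to 627 CPM, each below the one before it without overlap, apart from Gad2, which overlaps cerebral vGluT2. *Cplx3*, which encodes a membrane-anchored complexin, stood at 27.8 to 39.7 CPM in cerebral Gad2 IPs, 18.2 to 28.1 CPM in cerebral vGluT2 IPs, 10.6 to 13.3 CPM in PV IPs and 7.94 to 13.6 CPM in SST IPs. In the cerebellum it was at 4.44 to 6.14 CPM in Gad2 IPs and 1.41 to 5.55 CPM in vGluT2 IPs.

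**Figure D2:**
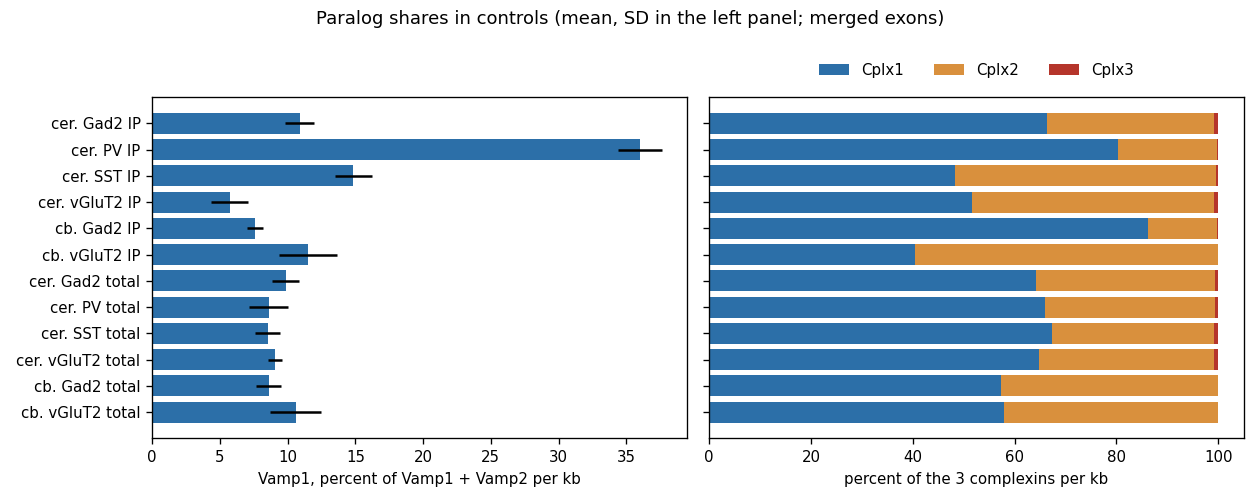
Share of each paralog in control libraries, from levels per kilobase of merged exons. Left, *Vamp1* as a percentage of *Vamp1* plus *Vamp2*, with the SD over libraries; right, the 3 complexins as percentages of their sum. *Cplx3* is the thin red end of each bar.

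As shares of the 3 complexins per kilobase, *Cplx1* led in the inhibitory IPs of the cerebellum (Gad2, 86.1%) and in PV (80.4%) and cerebral Gad2 IPs (66.3%). *Cplx2* led in cerebellar vGluT2 IPs, with 59.4% against 40.5% for *Cplx1*. SST and cerebral vGluT2 IPs lay between, with *Cplx1* at 48.3% and 51.7%. *Cplx3* stayed below 1% of the sum in every control group. This order depends on length. With counts not divided by length *Cplx2* led in cerebellar vGluT2 (76.6%), SST (70.3%), cerebral vGluT2 (66.9%) and cerebral Gad2 IPs (52.1%), and *Cplx1* only in cerebellar Gad2 (73.9%) and PV IPs (64.9%).

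Within a group, levels per kilobase of merged exons put *Cplx1* first in cerebral Gad2 IPs (809 CPM per kilobase), PV IPs (1115 CPM per kilobase) and cerebellar Gad2 IPs (669 CPM per kilobase). *Snap25* came first in cerebral (946 CPM per kilobase) and cerebellar vGluT2 IPs (1747 CPM per kilobase), and *Cplx2* in SST IPs (489 CPM per kilobase). With the longest protein-coding transcript, a length chosen for this order after seeing the data, *Snap25* came first in all 6 IP groups, from 1280 CPM per kilobase in SST to 5606 CPM per kilobase in cerebellar vGluT2 IPs. *Cplx3* came last in cerebral IPs on both scales, at 3.46 to 11.3 CPM per kilobase of merged exons.

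The genes whose mean levels over the 12 control groups ran most like each member were *Chgb*, *D10Wsu102e* and *Nasp* for *Snap25* (Pearson r of 0.99, 0.98 and 0.98), *Cd24a*, *Trmu* and *Diras1* for *Vamp1* (0.86, 0.85 and 0.84) and *Coa6*, *Ddost* and *Akr1a1* for *Vamp2* (0.97 each). For *Stx1a* they were *Rprm*, *Ypel1* and *Slit1* (0.99 each). For the complexins they were *Myadml2*, *Got1* and *Trnp1* for *Cplx1* (0.98, 0.94 and 0.93), *Cacna1c*, *Nedd4l* and *Pde4b* for *Cplx2* (0.93 each) and *Gmpr*, *Cx3cl1* and *Necab2* for *Cplx3* (0.99, 0.99 and 0.98). The 12 groups share mice and tissue. Among the members the closest pair is *Stx1a* and *Cplx3* (0.91), and *Vamp1* and *Cplx1* have an r of 0.75.

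Tests of these control patterns used edgeR with Benjamini-Hochberg adjustment over all protein-coding genes tested, and a gene is called at an adjusted p of 0.05 or less. Most genes differ between cell types here, so counts of members are to be read against the share of all genes called. In bulk material such as this, fewer cells of a type and less RNA per cell cannot be told apart.

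Against total RNA of the region, 5 members were called in cerebral Gad2 IPs (4 higher, 1 lower), where 62.6% of all genes were called. *Stx1a* was the lower one (log2 difference -1.83, SE 0.14, adjusted p = 6.97e-10, all 6 IPs below the median of total RNA). In PV IPs 6 members were called (3 higher, 3 lower; 69.2% of all genes): *Vamp1* (log2 difference 1.43, SE 0.07, adjusted p = 1.52e-12), *Cplx1* (1.07, SE 0.09) and *Snap25* higher, *Vamp2* (-1.11, SE 0.12), *Stx1a* (-2.45, SE 0.14) and *Cplx3* lower, with every IP on the side named. In SST IPs 5 were called (2 higher, 3 lower; 61.9% of all genes), with *Cplx2* 0.87 log2 units higher (SE 0.10, adjusted p = 1.45e-06, all 5 IPs). In cerebral vGluT2 IPs 5 were called (3 higher, 2 lower; 64% of all genes), and *Stx1a* was higher there (1.05, SE 0.11, adjusted p = 1.08e-07, all 6 IPs). The 5 calls stayed without the doubted control replicates 1 and 3.

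In the cerebellum 4 members were called in Gad2 IPs (3 higher, 1 lower; 57.1% of all genes). *Cplx2* was lower (log2 difference -1.47, SE 0.20, adjusted p = 9.22e-06, all 6 IPs) and *Cplx1* higher (0.81, SE 0.13, adjusted p = 5.31e-05, all 6 IPs). In vGluT2 IPs 4 were called, all higher (56.7% of all genes), with *Snap25* at 1.57 (SE 0.14, adjusted p = 2.73e-07, all 5 IPs) and *Cplx2* at 0.93 (SE 0.12). Without control replicates 1, 3 and 4, which leaves 2 vGluT2 IPs, 3 of those calls remained and *Vamp2* was no longer called (0.23, adjusted p = 0.300). With the mouse as a block and only mice that gave both libraries, *Snap25* and *Cplx2* in cerebral Gad2 IPs (adjusted p = 0.0507 and 0.123), *Vamp1* in cerebral vGluT2 IPs, *Vamp2* in both cerebellar IPs and *Cplx3* in cerebellar Gad2 IPs were not called.

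Between cerebral cell types, PV IPs differed from Gad2 IPs in 6 members (2 higher, 4 lower; 58% of all genes called). *Vamp1* was 1.25 log2 units higher in PV (SE 0.13, adjusted p = 1.55e-06) and *Cplx3* 1.38 lower (SE 0.10, adjusted p = 4.11e-08). SST IPs differed from Gad2 IPs in 5 members (1 higher, 4 lower; 50.7% of all genes), with *Cplx3* at -1.63 (SE 0.15, adjusted p = 3.48e-06, all 5 libraries) and *Cplx2* higher at 0.39 (SE 0.10, adjusted p = 0.00438, all 5 libraries). The PV and SST IPs, compared directly, differed in 4 members (2 higher, 2 lower, beside 18.2% of all genes called). *Vamp1* (1.56, SE 0.13) and *Cplx1* (1.27, SE 0.12) were higher in PV, and *Stx1a* (-0.86, SE 0.14) and *Cplx2* (-0.88, SE 0.14) lower. Cerebral vGluT2 IPs differed from Gad2 IPs in 6 members (3 higher, 3 lower; 29.8% of all genes), led by *Stx1a* at 2.89 (SE 0.14, adjusted p = 8.39e-10, all 6 libraries). Without control replicates 1 and 3, *Vamp2* was no longer called (0.24, adjusted p = 0.105). *Snap25* in SST against Gad2 IPs (adjusted p = 0.0473) and *Vamp2* in cerebral vGluT2 against Gad2 IPs (adjusted p = 0.0445) lie near the threshold and lost their call under several settings.

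In the cerebellum, vGluT2 IPs differed from Gad2 IPs in 5 members (3 higher, 2 lower; 56.4% of all genes). *Cplx2* was 2.46 log2 units higher (SE 0.20, adjusted p = 9.67e-08), *Snap25* 2.01 higher (SE 0.17) and *Cplx1* lower (-0.80, SE 0.16, adjusted p = 5.71e-04), each with all 5 vGluT2 libraries on that side. The 5 calls stayed without the doubted libraries, where *Cplx3* moved from -0.83 to -1.56. With 1 library left out *Cplx3* lost its call in 8 of 11 cases (adjusted p up to 0.0927, without control vGluT2 replicate 2), and with no filter on low counts it was not called (adjusted p = 0.0564). Gad2 IPs of the cerebellum differed from those of the cerebrum in 5 members, all lower (51.1% of all genes), among them *Stx1a* (-4.86, SE 0.18), *Cplx3* (-2.70, SE 0.13) and *Cplx2* (-1.98, SE 0.19). The vGluT2 IPs of the 2 regions differed in all 7 members (3 higher, 4 lower; 63.2% of all genes). Without the doubted libraries *Cplx1* lost its call there (-0.27, adjusted p = 0.105). The 2 regions of a mouse are compared, and with the mouse as a block 5 and 7 members were called. With 1 library left out, *Snap25* between regions of the Gad2 line lost its call in 7 of 12 cases (adjusted p up to 0.0883, without control cerebral replicate 1), and *Cplx1* between regions of the vGluT2 line in 2 of 11 (up to 0.0647, without control cerebellar replicate 3). With HD libraries added and genotype as a covariate, *Snap25* between regions of the Gad2 line was at -0.16 and not called.

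**Figure D3:**
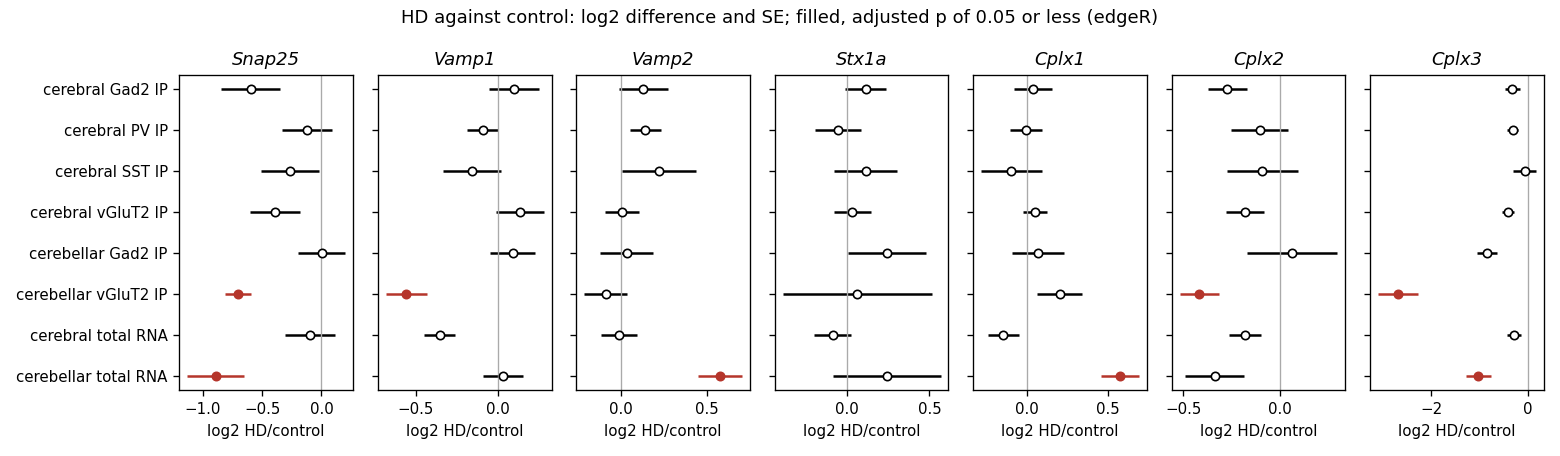
HD against control for each gene in the 6 IP groups and in total RNA of each region, as log2 difference with its SE. Filled red points are genes called by edgeR at an adjusted p of 0.05 or less over all genes tested; open points are not called. Scales differ between panels.

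The cerebellar vGluT2 IPs were the IP group in which edgeR called members between genotypes. *Cplx3* was at 5.55, 1.77, 4.37, 1.41 and 1.79 CPM in control replicates 1 to 5, and in HD at a lowest of 0.251, a median of 0.481 and a highest of 0.583 CPM. *Snap25* was at 12769, 11758, 13100.0, 11651 and 10035 CPM in controls, and in HD at 5406, 7710.3 and 8416 CPM. For both genes every HD library lies below every control library, and the controls with the highest *Cplx3*, replicates 1 and 3, are among those whose sex differs within the mouse. *Vamp1* was at 646, 621, 473, 463 and 581 CPM in controls and in HD at 340, 357 and 468 CPM, where HD replicate 5 overlaps the controls. *Cplx2* was at 3245, 2539, 2534, 2826 and 2767 CPM in controls and in HD at 1820, 1969 and 2531 CPM, where HD replicate 4 lies just below control replicate 3, and on the scale of the test the groups overlap.

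All 4 genes were called lower in HD: *Cplx3* by a log2 difference of -2.69 (SE 0.42, adjusted p = 0.00399), *Snap25* by -0.71 (SE 0.11, adjusted p = 0.00510), *Vamp1* by -0.56 (SE 0.12, adjusted p = 0.0336) and *Cplx2* by -0.42 (SE 0.10, adjusted p = 0.0492), each with all 6 HD libraries below the control median. They are 4 of the 285 genes called by edgeR of 13487 tested, or 2.11%. DESeq2 called 665 genes and 4 members. The members were not chosen blind to these libraries, so the count is not independent evidence. *Cplx1* (log2 difference 0.20, adjusted p = 0.513), *Vamp2* (-0.09, adjusted p = 0.760) and *Stx1a* (0.06, adjusted p = 0.962) were not called. The share of *Cplx2* among the complexins per kilobase was 59.4% in controls and 48.6% in HD, and 53.0% and 62.0% in control replicates 2 and 5, which are not in doubt.

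Of the granule cell markers, 1 of 3 was called lower (*Neurod1*, log2 difference -0.87, adjusted p = 0.00914), and their sum was at 2923, 3458, 3036, 3544 and 2488 CPM in controls and from 1811 to 2771 CPM in HD. *Fat2* (-0.18) and *Gabra6* (-0.37), the most abundant in both genotypes, were not called. Unipolar brush cells (*Eomes*) had a median of 29.3 CPM in controls and 18.7 CPM in HD, with ranges that overlap. The list of striatal projection neuron markers, of which *Ppp1r1b* was called lower (-0.62, adjusted p = 0.0180), summed to 66.6 to 106 CPM in controls and 48.4 to 66.7 CPM in HD. In these cerebellar libraries the list does not mark striatal neurons. The study describes *Ppp1r1b* in Purkinje neurons as well, and the list had a median of 1033 CPM in control cerebellar Gad2 IPs. Purkinje cell markers in the vGluT2 IPs summed to 232 to 439 CPM in controls and 119 to 450 CPM in HD, which overlap. The part of any of these markers in the lower levels was not tested. Without control replicates 1, 3 and 4, leaving 2 control libraries, 22 genes and none of the members were called by edgeR, with 1656 genes at an unadjusted p under 0.05. DESeq2 was not run on that set. These 4 genes kept their direction there: *Cplx3* -1.97 (adjusted p = 0.174), *Snap25* -0.59 (0.255), *Vamp1* -0.68 (0.128) and *Cplx2* -0.36 (0.345).

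*Cplx3* and *Snap25* kept their call whichever 1 of the 11 libraries was left out. *Vamp1* lost it in 8 of 11 cases and *Cplx2* in 10 of 11, and without control replicate 1 the count fell to 149 genes and 2 members. With all IP libraries in a single fit *Snap25* (adjusted p = 0.0588) and *Cplx2* (0.0939) were not called. With sex as a covariate *Vamp1* (0.0522) and *Cplx2* (0.0685) were not called, and *Cplx2* was not called with no filter on low counts (0.112) or with all gene types (0.0504).

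**Figure D4:**
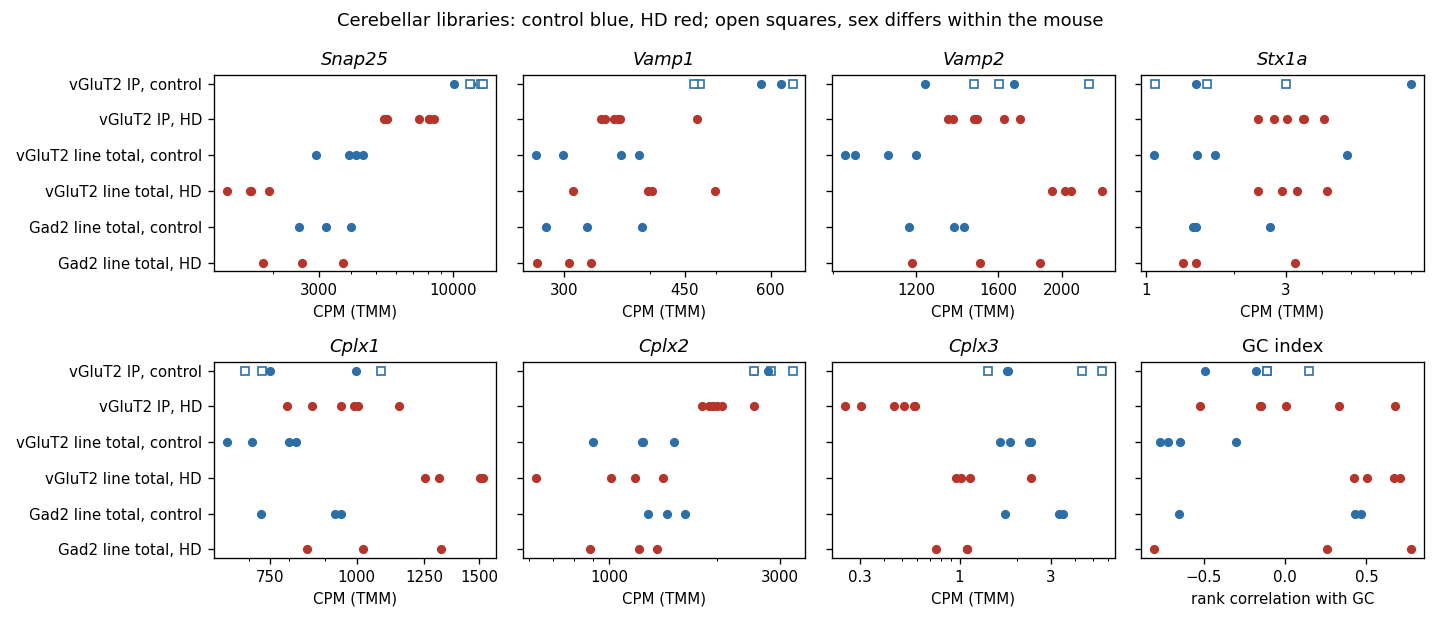
Each cerebellar library of the vGluT2 IPs and of total RNA by line, with controls in blue and HD in red, as CPM with TMM factors on a log scale. Open squares are control IPs that go against, or may go against, the sex of their mouse. The last panel shows the GC index of the same libraries, which does not overlap between genotypes in total RNA of the vGluT2 line.

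In cerebellar Gad2 IPs no member was called by edgeR, among 2 genes called of 14098 tested (0.0142%; 324 at an unadjusted p under 0.05); DESeq2 called 22 genes, 1 of them *Cplx3*. *Cplx3* ran from 4.44 to 6.14 CPM in 6 controls (median 4.92) and from 2.01 to 4.61 CPM in 6 HD libraries (median 2.76), so the groups overlap, with a log2 difference of -0.85 (SE 0.20, edgeR adjusted p = 0.660; DESeq2 -0.83, adjusted p = 0.0493). The difference between the HD effects in cerebellar vGluT2 and Gad2 IPs was called for none of the 7 by edgeR, among 15 genes called (0.107%; 989 at an unadjusted p under 0.05), while DESeq2 called 73 genes and *Cplx3* among them. For *Cplx3* it was -1.89 (SE 0.45, adjusted p = 0.115), and without the doubted libraries -1.17 (adjusted p = 0.327). With the GC index as a covariate, a setting chosen after seeing the data, edgeR called 103 genes and 1 member. The lower levels in vGluT2 IPs can therefore not be called particular to that cell type within the cerebellum by the main edgeR test. No mouse gave both IPs, so no block could be fitted.

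In the cerebrum no member was called in any IP. Gad2 IPs had 4 genes called (0.0279%; 1313 at an unadjusted p under 0.05; DESeq2 75 genes and 0 members), PV IPs 5 (0.034%; 630; DESeq2 42 and 0), SST IPs 0 (0%; 207; DESeq2 2 and 0) and vGluT2 IPs 1 (0.00697%; 1045; DESeq2 25 and 0). Without the doubted libraries no gene was called in vGluT2 IPs by edgeR (1893 at an unadjusted p under 0.05). *Cplx3* was nevertheless below the control median in all 6 HD libraries of Gad2 (log2 difference -0.33, SE 0.15) and vGluT2 IPs (-0.41, SE 0.12), and in all 5 of PV (-0.32, SE 0.11). In PV IPs the levels were 10.6 to 13.3 CPM in controls and 7.42 to 11.1 CPM in HD, which overlap here but not on the scale of that test. In SST IPs it differed by -0.07 (SE 0.24). *Snap25* differed by -0.60 (SE 0.25) in Gad2 IPs, -0.12 (SE 0.21) in PV, -0.26 (SE 0.24) in SST and -0.40 (SE 0.21) in vGluT2 IPs, with adjusted p of 0.536 or more in each. The median GC index was -0.48 in control and 0.38 in HD Gad2 IPs, and -0.51 and 0.01 in vGluT2 IPs, with ranges that overlap. With the index as a covariate, chosen after seeing the data, *Snap25* was at -0.29 in Gad2, -0.048 in PV, -0.34 in SST and -0.14 in vGluT2 IPs, and *Cplx3* at -0.53 in Gad2, -0.34 in PV, -0.083 in SST and -0.52 in vGluT2 IPs (adjusted p = 0.0853 in the last). None of these was called. *Cplx2* was below the control median in all 6 HD libraries of Gad2 IPs (-0.27, SE 0.10, adjusted p = 0.536). In Gad2 IPs edgeR called none of the striatal projection neuron markers. Their sum, without TMM factors, was 4161 to 5384 CPM in controls and 2330 to 4072 CPM in HD. On that scale the sum did not overlap between genotypes in vGluT2 IPs either, at 270 to 414 CPM in controls and 175 to 237 CPM in HD. In PV and SST IPs it overlapped. The part of these markers in the values above was not tested. *Vamp1*, *Vamp2*, *Stx1a* and *Cplx1* differed by less than 0.25 log2 units in either direction in the 4 cerebral IPs. A test that misses the threshold does not show equal levels.

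The HD effect differed between the regions for *Cplx3* in the vGluT2 IPs: cerebellum minus cerebrum gave -2.27 log2 units (SE 0.39, adjusted p = 0.00674). It was 1 member called beside 46 genes in all (0.323%), and it stayed called whichever library was left out. Without the doubted control libraries it was -1.62 (adjusted p = 0.0445). With the mouse as a block, in mice that gave both libraries, it was -2.05 and not called (adjusted p = 0.0512), and with the GC index added to that fit, after seeing the data, it was -2.09 (adjusted p = 0.0487).

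Total RNA of the cerebrum showed no member called among 96 genes (0.645%; 1046 at an unadjusted p under 0.05). *Vamp1* came closest, at 375 CPM on average in 12 HD against 480 CPM in 13 control libraries, 11 of the 12 HD libraries below the control median (log2 difference -0.35, SE 0.09, adjusted p = 0.0906). DESeq2 called 213 genes and this 1 member (-0.35, adjusted p = 0.0242), and so did edgeR with the GC index as a covariate (-0.33, adjusted p = 0.00807), a setting chosen after seeing the data. Without HD PV line replicate 1 edgeR called it as well (-0.40, adjusted p = 0.0177), and without any other of the 25 libraries it did not, in 24 cases with an adjusted p of up to 0.184. Of the striatal projection neuron markers, 3 of 5 were called lower in the same libraries, such as *Penk* (-0.80, adjusted p = 0.00739). Their part in the *Vamp1* value was not tested. *Cplx3* differed by -0.29 (SE 0.14) and the other members by less than 0.20 in either direction.

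Total RNA of the cerebellum held 4 called members, but 24.5% of all genes were called, 3544 of 14477. *Snap25* was at 4476, 3936, 2933 and 4195 CPM in controls of the vGluT2 line and at 1318 to 1931 CPM in HD, and in the Gad2 line at 2517 to 4003 CPM in controls and 1823 to 3733 CPM in HD. The lines thus differ: the genotypes do not overlap in the vGluT2 line and overlap in the Gad2 line. Over both lines *Snap25* (log2 difference -0.89, SE 0.24, adjusted p = 0.0304) and *Cplx3* (-1.03, SE 0.27, adjusted p = 0.0293) were lower in HD, and *Vamp2* (0.58, SE 0.13, adjusted p = 0.0271) and *Cplx1* (0.58, SE 0.12, adjusted p = 0.0216) higher, each with all 7 HD libraries on that side of the control median on the scale of the test. *Vamp2* was at 1200, 970.5, 1090.1 and 937 CPM in controls of the vGluT2 line and 1931 to 2295 CPM in HD, and *Cplx1* at 799, 650.1, 817 and 708 CPM against 1254 to 1520.5 CPM, and neither overlaps. *Cplx3* was at 2.30, 2.35, 1.84 and 1.62 CPM in those controls and from 0.957 to 2.37 CPM in HD, with HD replicate 1 above all 4 of those controls.

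The GC index separates the genotypes in the vGluT2 line, so genotype and index cannot be told apart within that line. In the vGluT2 line alone 7565 genes and 3 members were called, and in the Gad2 line alone none of either, with 316 genes at an unadjusted p under 0.05. With the index as a covariate, a setting chosen after seeing the data, 182 genes and 2 members were called: *Cplx3* (-1.39, adjusted p = 0.0220) and *Cplx1* (0.36, adjusted p = 0.0482), while *Snap25* was at -0.37 (adjusted p = 0.119) and *Vamp2* at 0.35 (adjusted p = 0.109). Leaving out 1 library gave 96 genes (without HD vGluT2 line replicate 4) to 7408 genes (without HD Gad2 line replicate 3) and between 0 and 4 members. Of the oligodendrocyte markers, *Mobp* was called lower (-1.05, adjusted p = 0.00983), and *Mbp* (-0.07), *Mog* (0.13) and *Mag* (0.30) were not called. In the vGluT2 line many sums of other markers, without TMM factors, did not overlap between genotypes: Purkinje cells 2315 to 2673 CPM in controls and 1163 to 1739 CPM in HD, granule cells 1333 to 1725 CPM and 878 to 1222 CPM, astrocytes 2136 to 2385 CPM and 1311 to 2043 CPM, glutamatergic neurons 534 to 812 CPM and 1121 to 1243 CPM, GABAergic neurons 747 to 946 CPM and 596 to 691 CPM, unipolar brush cells 9.23 to 14.1 CPM and 3.65 to 7.83 CPM, and microglia 54.0 to 60.7 CPM and 68.0 to 78.3 CPM. The TMM factors of that line ran from 1.03 to 1.12 in controls and from 0.892 to 0.917 in HD. Dividing by them lowers the control sums and raises the HD sums, and not all of these separations remain. In the Gad2 line the Purkinje cell sums (2180 to 2582 CPM in controls, 1846 to 2041 CPM in HD) did not overlap either. Nor did those of GABAergic neurons (782 to 853 CPM and 663 to 752 CPM), and the other sums listed overlapped there. A sum over all oligodendrocyte markers is not given, so the genes named do not show whether that class stayed level. The part of these markers in the result was not tested.

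In the cerebellar vGluT2 IPs the index overlaps between genotypes, and with it as a covariate 643 genes were called and the same 4 members: *Cplx3* -2.82, *Snap25* -0.65, *Vamp1* -0.56 and *Cplx2* -0.48 (adjusted p of 0.0229 or less).

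The HD effect in cerebellar vGluT2 IPs minus that in total RNA of the same line was called for 5 members, beside 28.6% of all genes: *Vamp2* (-0.95, SE 0.18, adjusted p = 5.82e-04), *Vamp1* (-0.71, SE 0.21, adjusted p = 0.0142), *Cplx1* (-0.58, SE 0.19, adjusted p = 0.0294) and *Cplx3* (-2.00, SE 0.57, adjusted p = 0.0125) more negative in IPs, *Snap25* less so (0.67, SE 0.20, adjusted p = 0.0179). With 1 library left out *Cplx1* lost its call in 7 of 19 cases (edgeR adjusted p up to 0.0684), and the other called members kept theirs. With the GC index as a covariate no member was called by edgeR among 1379 genes (3542 at an unadjusted p under 0.05), and *Snap25* was at 0.09. With the mouse as a block, in mice that gave both libraries, *Vamp1*, *Vamp2* and *Cplx1* kept their call, and *Cplx3* was at -1.02 (adjusted p = 0.237). The same 3 kept it without the doubted libraries, where *Snap25* (0.72, adjusted p = 0.0653) and *Cplx3* (-1.35, adjusted p = 0.102) were not called.

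Taken over the 8 HD comparisons, *Cplx3* had a lower value in HD in 8, *Snap25* and *Cplx2* in 7 each, *Vamp1* in 4, *Cplx1* in 3, and *Vamp2* and *Stx1a* in 2 each. The libraries of a region come partly from the same mice, so these are not separate trials.

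Other genes of vesicle fusion were taken from a list of 41, of which 40 matched and 39 were tested. None was called in any HD comparison of IPs by edgeR. In cerebellar vGluT2 IPs, where 2.11% of all genes were called, 4 of 7 members were, and the difference from the list was not tested. There the list's median log2 difference was -0.11, against -0.01 over all genes. Of 20 other synaptic vesicle genes none was called in those IPs either (median 0.08). In cerebellar total RNA, where 24.5% of all genes were called, 10 of the 39 fusion genes were called (3 higher, 7 lower), the 6 with the smallest p being *Rims3* (0.79, adjusted p = 0.00192), *Rims2* (-0.87), *Rims1* (-0.94), *Napb* (-0.80), *Stx6* (0.40) and *Snap47* (0.48). *Rims1* and *Rims2* encode active zone scaffolds that tether vesicles near calcium channels. Of the 20 vesicle genes 9 were called, beside the same 24.5%, all higher and led by *Syp* (0.63, adjusted p = 0.0216), which encodes synaptophysin, *Syngr3* (0.47), *Syn2* (0.42), *Scamp5* (0.61), *Sv2a* (0.49) and *Atp6v0c* (0.56). Neither list was tested with the GC index, from which genotype cannot be told apart in the vGluT2 line of those libraries. In cerebral total RNA none of either list was called by edgeR. Of other paralogs, *Snap23* was lower in cerebellar total RNA (log2 difference -1.14, adjusted p = 0.0424), and *Vamp3* was called in no HD comparison. *Cplx4* was too low to test.

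*Vamp1* sets PV IPs apart without overlap in levels, *Snap25* cerebellar vGluT2 IPs, and *Stx1a* cerebral vGluT2 IPs, while the highest *Cplx1* (PV) and *Cplx2* (cerebellar vGluT2) overlap another IP group. In HD the difference that held in the most settings is the low *Cplx3* of cerebellar vGluT2 IPs, followed by *Snap25*, both resting in part on control libraries whose mouse is in doubt.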

How the data were processed

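RNA sequencing of RiboTag IPs and total RNA gave 106 libraries from 45 mice. The authors aligned reads to GRCm38.p6 with STAR and quantified them with Salmon, and the values are estimated counts per gene as deposited, not normalized. They were then rounded to whole numbers (8.57% were not whole), and 92 spike-ins, at most 4.45% of a library, were left out. Library totals ran from 21905221 to 107753586, with a median of 35866726. No 2 libraries of a replicate group were duplicates: the lowest chi-squared per degree of freedom of such a pair was 7.96. Pairs across groups were not checked. Genes were matched to GENCODE M21 (55141 of 55401), and those of protein-coding type averaging more than 10 counts over a comparison's libraries were tested.

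Comparisons used edgeR 4.0.16 (quasi-likelihood test, TMM) in R 4.3.3, with Benjamini-Hochberg adjustment, and DESeq2 1.42.0 as an alternative. Other software was limma 3.58.1, Python 3.11.15, numpy 2.4.6, pandas 2.3.3, scipy 1.17.1 and matplotlib 3.10.9, and the fits were tested on simulated data. IPs of 2 regions and total RNA of 1 line come from the same mice by their identifiers; between regions, deviations of a mouse's control IPs correlated from -0.34 to 0.67. Alternatives changed the test, scaling, filter, gene types, pairing, sex, sequencing run and samples.

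Genes named are the 7 members in every comparison, up to 6 called genes with the smallest p per list and HD comparison from lists of other fusion and vesicle genes, the closest paralogs, 3 genes with the most similar control levels per member, and cell type markers. The members and lists were chosen with earlier results of these data known.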

Additional observations from a re-analysis of the deposited data

Results flagged for a closer look

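In 9 of 105 pairs of a member and a group of 4 or more libraries, 1 library stood far from the others by Dixon's ratio, which chance gives in about 1 in 20 groups. HD SST IP replicate 4 stands apart for both *Snap25* and *Vamp2*. *Snap25* was lowest in control cerebral vGluT2 IP replicate 1 (3229.7 CPM against 6556.9 to 7775.9 CPM), in HD SST IP replicate 4 (1302.8 CPM against 2489.0 to 2647.7 CPM) and in HD cerebellar Gad2 IP replicate 4 (1604.4 CPM against 2983.2 to 3514.2 CPM). *Vamp2* was highest in HD SST IP replicate 4 (1584.5 CPM against 825.41 to 940.14 CPM) and in HD cerebral vGluT2 IP replicate 1 (2864.0 CPM against 1770.2 to 2091.4 CPM). *Vamp1* was highest in HD cerebellar vGluT2 IP replicate 5 (468.35 CPM against 339.78 to 361.99 CPM) and *Cplx2* in HD cerebellar vGluT2 IP replicate 4 (2531.2 CPM against 1819.8 to 2058.0 CPM). *Stx1a* was highest in control cerebellar vGluT2 IP replicate 5 (8.0271 CPM against 1.0721 to 3.0124 CPM), the library that also held *Sst*. *Cplx3* was highest in HD cerebellar total RNA of the vGluT2 line, replicate 1 (2.3681 CPM against 0.95674 to 1.1379 CPM).

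The HD effect differed between groups by a test of the difference for *Cplx3* in vGluT2 IPs, cerebellum minus cerebrum (-2.2671 log2 units). Both regions come from the same mice. With the mouse as a block this difference was not called, and with the GC index added to that fit, after seeing the data, it was. The HD effect also differed between cerebellar vGluT2 IPs and total RNA of that line for *Snap25* (0.6694), *Vamp1* (-0.714), *Vamp2* (-0.9525), *Cplx1* (-0.5818) and *Cplx3* (-2.0032). With the GC index as a covariate none of the last 5 was called, and in those total RNA libraries genotype and index cannot be told apart. With the mouse as a block, *Vamp1*, *Vamp2* and *Cplx1* kept their call in that difference, and *Snap25* and *Cplx3* did not.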

How the results depend on the processing

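Each comparison was refitted under the alternatives and with each library left out in turn. Of the 553 values of single members in HD comparisons, 495 kept direction and side of the threshold under the alternatives, 23 lost a call, 3 gained a call and 32 changed sign. With a library left out, 633 of 742 stayed. In the comparisons of IPs with total RNA 198 of 224 and 667 of 700 stayed, between cell types 242 of 266 and 516 of 560, and for differences between HD effects 111 of 133 and 436 of 455. A sign changed in a called value only once, for *Snap25* in the difference between IPs and total RNA. The alternatives with the GC index, those without the doubted libraries, and levels by the longest transcript were chosen after seeing the data. For every change given here the cause was not tested. The limits are these. Groups hold 3 to 6 libraries, the doubted libraries cannot be assigned, and *Stx1a* and *Cplx3* lie near the low end of depth in the cerebellum, at single CPM. Lengths of isoforms are not resolved by counts per gene.

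Replicate numbers of HD and control groups are different mice, so the block below rests on a shared number only. Of 48 same-numbered pairs in 12 pairs of groups, 25 had a correlation of deviations over 0.1 (from -0.85 to 0.96), and 17 were most alike to their own number, so the numbers were not taken as pairs, although all 3 pairs of total RNA of the cerebral Gad2 line were alike (0.57 to 0.96) and each best with its own number. For HD against control: With DESeq2 75 genes were called in cerebral Gad2 IPs, 42 in PV IPs, 2 in SST IPs, 25 in cerebral vGluT2 IPs, 22 in cerebellar Gad2 IPs, 665 in cerebellar vGluT2 IPs and 213 in cerebral total RNA, with 1 member in cerebellar Gad2 IPs and 1 in cerebral total RNA, and the sign turned for *Cplx1* in PV IPs (0.0077). With the replicate number as a block 9 genes were called in cerebral Gad2 IPs, 0 in PV IPs, 1 in SST IPs, 0 in cerebral vGluT2 IPs, 0 in cerebellar Gad2 IPs, 108 in cerebellar vGluT2 IPs and 36 in cerebellar total RNA, with 2 members in cerebellar vGluT2 IPs and 0 in cerebellar total RNA, and the sign turned for *Stx1a* in PV IPs (0.055), *Cplx1* in PV IPs (0.059), *Cplx2* in PV IPs (0.0057), *Vamp2* in cerebral vGluT2 IPs (-0.043), *Stx1a* in cerebral vGluT2 IPs (-0.056) and *Snap25* in cerebellar Gad2 IPs (-0.030). With sex as a covariate 14 genes were called in cerebral Gad2 IPs, 0 in PV IPs, 0 in cerebral vGluT2 IPs and 0 in cerebellar Gad2 IPs, with 2 members in cerebellar vGluT2 IPs, and the sign turned for *Cplx1* in cerebral Gad2 IPs (-0.046) and *Cplx1* in PV IPs (0.019). With the GC index as a covariate 13 genes were called in cerebral Gad2 IPs, 14 in PV IPs, 4 in cerebral vGluT2 IPs, 643 in cerebellar vGluT2 IPs, 379 in cerebral total RNA and 182 in cerebellar total RNA, with 1 member in cerebral total RNA and 2 in cerebellar total RNA, and the sign turned for *Vamp2* in cerebral Gad2 IPs (-0.043), *Cplx1* in cerebral Gad2 IPs (-0.082), *Vamp2* in cerebral vGluT2 IPs (-0.049), *Stx1a* in cerebral vGluT2 IPs (-0.061), *Snap25* in cerebellar Gad2 IPs (-0.17), *Vamp2* in cerebral total RNA (0.028) and *Vamp1* in cerebellar total RNA (-0.047). With all IP libraries in a single fit 20 genes were called in cerebral Gad2 IPs, 0 in PV IPs, 5 in cerebral vGluT2 IPs, 13 in cerebellar Gad2 IPs and 548 in cerebellar vGluT2 IPs, with 2 members in cerebellar vGluT2 IPs, and the sign turned for *Vamp2* in cerebral vGluT2 IPs (-0.0080). With no filter on low counts 0 genes were called in cerebral vGluT2 IPs and 1 in cerebellar Gad2 IPs, and the sign turned for *Cplx1* in PV IPs (0.0091). With DESeq2 size factors in edgeR 0 genes were called in cerebral vGluT2 IPs and 1 in cerebellar Gad2 IPs, and the sign turned for *Cplx1* in PV IPs (0.0077). With filterByExpr the sign turned for *Cplx1* in PV IPs (0.0047). With all gene types 0 genes were called in cerebral vGluT2 IPs and 0 in cerebellar Gad2 IPs, and the sign turned for *Cplx1* in PV IPs (3.1e-04). Without the libraries sequenced again 0 genes were called in cerebellar Gad2 IPs, and the sign turned for *Cplx1* in PV IPs (0.030), *Stx1a* in cerebral vGluT2 IPs (-0.0043) and *Snap25* in cerebellar Gad2 IPs (-0.029). With SST mice of one identifier series the sign turned for *Vamp2* in SST IPs (-6.8e-04) and *Cplx2* in SST IPs (0.015). Without the doubted libraries 0 genes were called in cerebral vGluT2 IPs and 22 in cerebellar vGluT2 IPs, with 0 members in the latter, and the sign turned for *Vamp1* in cerebral vGluT2 IPs (-0.0073), *Vamp2* in cerebellar vGluT2 IPs (0.058) and *Stx1a* in cerebellar vGluT2 IPs (-0.58). Without the SST line 21 genes were called in cerebral total RNA, and the sign turned for *Snap25* in cerebral total RNA (0.037) and *Vamp2* in cerebral total RNA (0.015). In the Gad2 line alone 0 genes and 0 members were called in cerebellar total RNA, and the sign turned for *Vamp1* there (-0.13). In the vGluT2 line alone 7565 genes were called in cerebellar total RNA. Cerebral Gad2 IPs gave 3 (without HD replicate 5) to 12 genes (without HD replicate 4) and *Cplx1* -0.026 to 0.13 with 1 library left out. PV IPs gave 0 (without control replicate 1) to 4 genes (without HD replicate 2, sequenced again), *Snap25* -0.25 to 0.0018, *Stx1a* -0.16 to 0.013 and *Cplx1* -0.056 to 0.045 with 1 library left out. SST IPs gave 0 (without control replicate 2) to 1 gene (without HD replicate 3), *Vamp2* -0.017 to 0.33, *Stx1a* -0.10 to 0.21, *Cplx1* -0.28 to 0.018, *Cplx2* -0.30 to 0.0077 and *Cplx3* -0.36 to 0.052 with 1 library left out. Cerebral vGluT2 IPs gave 0 (without control replicate 1) to 1 gene (without control replicate 5), *Vamp2* -0.085 to 0.063 and *Stx1a* -0.019 to 0.11 with 1 library left out. Cerebellar Gad2 IPs gave 0 (without control replicate 3) to 3 genes (without HD replicate 4), *Snap25* -0.12 to 0.13, *Vamp2* -0.053 to 0.18, *Cplx1* -0.031 to 0.18 and *Cplx2* -0.077 to 0.16 with 1 library left out. Cerebellar vGluT2 IPs gave 149 (without control replicate 1) to 255 genes (without HD replicate 4), 2 (without control replicate 1) to 3 members (without control replicate 3), *Vamp2* -0.16 to 0.031 and *Stx1a* -0.14 to 0.88 with 1 library left out. Cerebral total RNA gave 62 (without HD SST line replicate 2) to 145 genes (without control SST line replicate 1), 0 (without control Gad2 line replicate 1) to 1 member (without HD PV line replicate 1), *Snap25* -0.20 to 0.0045 and *Vamp2* -0.068 to 0.017 with 1 library left out. Cerebellar total RNA gave 96 (without HD vGluT2 line replicate 4) to 7408 genes (without HD Gad2 line replicate 3), 0 (without control vGluT2 line replicate 1) to 4 members (without control Gad2 line replicate 1) and *Vamp1* -0.032 to 0.091 with 1 library left out. In cerebellar vGluT2 IPs the members called with the block were *Cplx3* and *Snap25*.

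For IPs against total RNA in controls, where the mouse block uses only mice that gave both libraries: With total RNA of that line alone 4790 genes were called in cerebral Gad2 IPs, and the sign turned for *Vamp2* in cerebral Gad2 IPs (0.17), *Vamp1* in cerebellar Gad2 IPs (0.059) and *Cplx1* in cerebellar vGluT2 IPs (0.028). Blocking by mouse, 2494 genes were called in cerebral Gad2 IPs and 4558 in cerebellar Gad2 IPs, with 3 members in cerebral Gad2 IPs and 2 in cerebellar Gad2 IPs, and the sign turned for *Vamp2* in cerebral Gad2 IPs (0.30), *Cplx2* in PV IPs (0.13), *Cplx1* in cerebellar vGluT2 IPs (0.0091) and *Cplx3* in cerebellar vGluT2 IPs (-0.50). Without TMM factors the sign turned for *Cplx2* in PV IPs (0.051), *Vamp1* in SST IPs (0.017) and *Stx1a* in cerebellar Gad2 IPs (-0.093). With no filter on low counts the sign turned for *Vamp1* in cerebellar Gad2 IPs (0.044) and *Cplx1* in cerebellar vGluT2 IPs (0.010). Without the doubted libraries 5355 genes were called in cerebellar vGluT2 IPs, and the sign turned for *Cplx1* in cerebellar vGluT2 IPs (0.032) and *Cplx3* in cerebellar vGluT2 IPs (-0.51). With DESeq2 the sign turned for *Cplx1* in cerebellar vGluT2 IPs (0.014). PV IPs gave *Cplx2* -0.10 to 0.042 with 1 library left out. Cerebellar Gad2 IPs gave *Vamp1* -0.079 to 0.077 and *Stx1a* -0.074 to 0.41 with 1 library left out. Cerebellar vGluT2 IPs gave *Stx1a* -0.36 to 0.78, *Cplx1* -0.14 to 0.051 and *Cplx3* -0.17 to 0.40 with 1 library left out. Between cell types in controls, where a replicate block is a mouse only between regions: With HD libraries added and genotype as a covariate 5637 genes were called in PV against SST IPs, and the sign turned for *Vamp2* in cerebellar vGluT2 against Gad2 IPs (-0.076). With the replicate number as a block 813 genes were called in PV against SST IPs, and the sign turned for *Vamp2* in cerebellar vGluT2 against Gad2 IPs (-0.010) and *Stx1a* in cerebellar vGluT2 against Gad2 IPs (-0.028). Without the doubted libraries 5169 genes were called in cerebellar vGluT2 against Gad2 IPs, and the sign turned for *Vamp2* in cerebellar vGluT2 against Gad2 IPs (-0.15). With DESeq2 the sign turned for *Vamp2* in cerebellar vGluT2 against Gad2 IPs (-0.0072). Cerebellar vGluT2 against Gad2 IPs gave *Vamp2* -0.14 to 0.13 and *Stx1a* -0.41 to 0.59 with 1 library left out. Between regions that block left the members called at 5 and 7.

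For differences between HD effects: With DESeq2 73 genes were called in cerebellar vGluT2 minus Gad2 IPs and 126 in vGluT2 IP cerebellum minus cerebrum, with 1 member in cerebellar vGluT2 minus Gad2 IPs. With the GC index as a covariate 103 genes were called in cerebellar vGluT2 minus Gad2 IPs, 139 in vGluT2 IP cerebellum minus cerebrum and 1379 in cerebellar vGluT2 IP minus total RNA, with 1 member in cerebellar vGluT2 minus Gad2 IPs and 0 in cerebellar vGluT2 IP minus total RNA, and the sign turned for *Cplx1* in cerebellar vGluT2 minus Gad2 IPs (-0.080) and *Cplx2* in cerebellar vGluT2 IP minus total RNA (0.32). Without the doubted libraries 6 genes were called in cerebellar vGluT2 minus Gad2 IPs, 17 in vGluT2 IP cerebellum minus cerebrum and 2329 in cerebellar vGluT2 IP minus total RNA, with 3 members in cerebellar vGluT2 IP minus total RNA, and the sign turned for *Stx1a* in vGluT2 IP cerebellum minus cerebrum (-0.70). Blocking by mouse, 2473 genes were called in cerebellar vGluT2 IP minus total RNA, with 0 members in vGluT2 IP cerebellum minus cerebrum and 3 in cerebellar vGluT2 IP minus total RNA. Blocking by mouse with the GC index as a covariate, 0 genes and 0 members were called in cerebellar vGluT2 IP minus total RNA, and the sign turned for *Snap25* in cerebellar vGluT2 IP minus total RNA (-0.24) and *Cplx2* in cerebellar vGluT2 IP minus total RNA (0.12). Cerebellar vGluT2 minus Gad2 IPs gave 13 (without control Gad2 replicate 6) to 25 genes (without control vGluT2 replicate 5), *Stx1a* -0.41 to 0.59 and *Cplx1* -0.0074 to 0.23 with 1 library left out. For vGluT2 IPs, cerebellum minus cerebrum gave *Vamp2* -0.20 to 0.046 and *Stx1a* -0.17 to 0.82 with 1 library left out. Cerebellar vGluT2 IP minus total RNA gave *Stx1a* -0.97 to 0.53 and *Cplx2* -0.27 to 0.074 with 1 library left out. Under that mouse block with the index, *Cplx3* in cerebellum minus cerebrum was at -2.09 (adjusted p = 0.0487).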
